A study of Mus musculus with 12 samples.

Results

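The NEDD4 family was followed as 10 genes, of 24346 gene symbols with a value in every library: 8 HECT-type ubiquitin ligases (Nedd4, Nedd4l, Itch, Wwp1, Wwp2, Smurf1, Smurf2 and Hecw2) and the adaptors Ndfip1 and Ndfip2. Members were taken by gene symbol and not by a limit on their measured values, although earlier results of these data were known when they were chosen. RNA-seq was performed on myeloid-derived suppressor cells (MDSCs), immature myeloid cells that accumulate in tumors, sorted from tumors that Hepa 1-6 cells, a mouse hepatoma line, had formed in the livers of wild-type C57BL/6 J mice. M-MDSCs, the monocytic subset (CD11b+, high Ly-6C, without Ly-6G), and PMN-MDSCs, the polymorphonuclear subset (CD11b+, intermediate Ly-6C, Ly-6G+), were each represented by 2 libraries from vehicle-, 2 from MS-275- and 2 from CXD101-treated mice, 12 libraries in all. Mice were 6 to 8 weeks old, and those with a high share of MDSCs in blood were chosen for treatment. MS-275 (entinostat) and CXD101 are inhibitors of class I histone deacetylases and were given at the same dose, 5 mg/kg daily for 10 days from day 10 after inoculation, with collection on day 21. This schedule is stated for the M-MDSC libraries, and no schedule of their own is given for the PMN-MDSC libraries.

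HECT ligases carry ubiquitin on a cysteine of their catalytic domain before they pass it to a substrate. Those of the NEDD4 family bind membranes through a C2 domain and substrates or adaptors through WW domains, which recognize short proline-rich PY motifs. NDFIP1 and NDFIP2 are membrane proteins of the Golgi and endosomes that present PY motifs, and thereby recruit and activate the ligases.

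Nedd4 rose and Smurf1 fell in these cells, and the sequences upstream of both genes are shown because these members carry the results. The sequences are from RefSeq on GRCm38.p6, 250 bases before an annotated start, 5′ to 3′ on the strand of the gene, with GC boxes (GGGCGG) and CCAAT boxes (CCAAT) of either strand in capitals. Nedd4 has 2 entries, a first start and a second one further into the gene.
Nedd4, first start, chr9:72662081-72662330, plus strand: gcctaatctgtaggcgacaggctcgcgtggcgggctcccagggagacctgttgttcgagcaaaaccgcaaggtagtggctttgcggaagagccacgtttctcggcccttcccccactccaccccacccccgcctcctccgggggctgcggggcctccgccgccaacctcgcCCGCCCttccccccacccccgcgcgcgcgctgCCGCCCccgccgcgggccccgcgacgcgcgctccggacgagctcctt
Nedd4, second start, chr9:72693048-72693297, plus strand: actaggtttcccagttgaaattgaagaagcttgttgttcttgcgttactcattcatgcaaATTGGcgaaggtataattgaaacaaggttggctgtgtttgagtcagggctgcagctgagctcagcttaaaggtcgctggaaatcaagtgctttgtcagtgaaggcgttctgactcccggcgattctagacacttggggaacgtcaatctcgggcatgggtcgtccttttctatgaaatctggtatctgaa
Smurf1, chr5:144965831-144966080, minus strand: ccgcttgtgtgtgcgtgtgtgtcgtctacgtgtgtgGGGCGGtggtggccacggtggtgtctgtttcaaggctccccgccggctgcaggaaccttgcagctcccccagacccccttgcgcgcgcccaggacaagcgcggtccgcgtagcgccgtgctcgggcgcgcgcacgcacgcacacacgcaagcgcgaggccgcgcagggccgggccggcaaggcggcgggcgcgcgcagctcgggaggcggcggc

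The first Nedd4 window had a GC content of 74.0% with 32 CpG dinucleotides, and the Smurf1 window 74.8% with 38, whereas the second Nedd4 window had 46.0% with 9. Over 32851 promoter windows of the same length, the median GC content was 52.4% and the median number of CpG dinucleotides was 6. The first Nedd4 window held 2 GC boxes and the Smurf1 window 1, and 32.7% of all windows held at least 1. The second Nedd4 window held 1 CCAAT box, a motif present in 33.8% of windows. An ETS core (CCGGAAG, 6.91% of windows), a PU.1 site (GAGGAAGT, 2.44%), a CRE (TGACGTCA, 1.55%), a TATA box (TATAAA, 12.4%) and an E box (CACGTG, 6.02%) were searched on both strands too, and these letters were not in the 3 windows. No 2 matches overlapped. Of the 10 members, 6 had a promoter entry. The windows of the others held 82.0% GC with 38 CpG dinucleotides for Smurf2, 70.0% with 24 for Hecw2, 62.8% with 22 for Wwp2 and 53.2% with 11 for Ndfip2. In the same order they held 7, 3, 1 and 1 GC boxes. A high GC content was thus not particular to the members called.

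Values are deposited FPKM, which count fragments relative to transcript length and library size, so levels of different genes can be compared per length. In the 12 libraries, 13582 to 14211 genes were above 0. The files hold no counts, and the steps between low values gave an estimate of 6.76 to 10.5 M reads per library, with only 56.7% to 69.5% of low values within 0.1 read of a whole number. Comparisons were made by limma on log2(FPKM + 1), and a gene was called at an adjusted p under 0.05 and a fold change above 1.5. A gene entered a fit when 2 or more of its libraries reached an FPKM of 1, which 9 of the 10 members did in each fit. Fold changes on this scale understate the change of genes with low FPKM. The libraries of a group are called biological replicates, but nothing says how many mice each held, and p-values measure the spread between these libraries. In such bulk samples, fewer cells of a type and less RNA per cell cannot be told apart.

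The labels were checked against defining markers. The monocytic receptor gene Ccr2 was at 124 to 147 FPKM in M-MDSCs and 27.5 to 40.7 in PMN-MDSCs, and Ly6c2 at 1306 to 1360 in M-MDSCs of vehicle mice and 455 to 511 in PMN-MDSCs of vehicle mice. With treatment, Ly6c2 was at 2041 to 2447 in M-MDSCs and 1418 to 1677 in PMN-MDSCs, so that treated PMN-MDSCs were above M-MDSCs of vehicle mice for this marker but not for Ccr2. The neutrophil gene Csf3r was at 8.75 to 24.9 in M-MDSCs and 214 to 339 in PMN-MDSCs. Csf1r, a monocyte and macrophage receptor gene, was higher in PMN-MDSCs of vehicle mice (145 to 160) than in M-MDSCs of vehicle mice (123 in both libraries). Ly6g was listed as a neutrophil marker but had no value under that symbol, so the PMN-MDSC label could not be checked by it. Summed markers of lymphocytes and NK cells, of hepatocytes and liver tumor and of erythroid cells reached at most 3.45 FPKM in any library, with 2 to 4 genes of each list at 0 in both libraries of every group. Markers of monocytic and other myeloid cells moved with treatment. The sum of 6 monocytic markers, Ly6c2 among them, was 1877 to 1946 FPKM with vehicle, 2889 to 2940 with MS-275 and 2551 to 2626 with CXD101 in M-MDSCs, and 1556 to 1561, 2467 to 2660 and 2428 to 2618 in PMN-MDSCs. Ly6c2 and Ly6c1 rose with both inhibitors in both subsets, whereas the means of Ccr2, Csf1r and Fcgr1 fell. Csf1r had means of 123, 96.0 and 103 FPKM in M-MDSCs and 153, 62.0 and 71.9 in PMN-MDSCs with vehicle, MS-275 and CXD101. Itgam was lower in treated M-MDSCs and near its vehicle level in PMN-MDSCs. In M-MDSCs, the sum of 6 progenitor markers was 1476 to 1491 FPKM with vehicle, 4117 to 4398 with MS-275 and 3464 to 3604 with CXD101, and the sum of 5 eosinophil markers was 10.2 to 15.0, 144 to 163 and 112 to 123. In PMN-MDSCs, the progenitor sum was 169 to 290, 330 to 390 and 326 to 394. The eosinophil sum there was 63.0 to 66.2, 52.2 to 62.6 and 48.2 to 54.4. The means of Flt3, below 1 FPKM, fell with both inhibitors in both subsets, whereas those of Cd34, Kit and Elane rose. Prtn3 had means of 114, 103 and 120 in PMN-MDSCs. The means of Prg2 and Epx rose in M-MDSCs and fell in PMN-MDSCs. The 8 neutrophil markers found summed to 10979 to 11771, 21910 to 25833 and 21288 to 22580 in M-MDSCs, and to 69914 to 95781, 236034 to 259429 and 244406 to 270046 in PMN-MDSCs. S100a8 and S100a9 made up most of these sums, and Csf3r, Cxcr2 and Mmp8 rose with them in both subsets. Retnlg rose in PMN-MDSCs only. Mmp9 fell, with means of 8.85, 3.63 and 4.63 FPKM in M-MDSCs and 1061, 675 and 709 in PMN-MDSCs. S100a8 and S100a9 together took 10.2% to 13.7% of all FPKM in PMN-MDSCs of vehicle mice and 27.3% to 30.9% in those of treated mice. Macrophage markers summed to 145 to 147, 75.2 to 81.3 and 118.9 to 136.5 in M-MDSCs, and to 182 to 191, 128 to 143 and 111 to 123 in PMN-MDSCs. Within this macrophage list, the means of Mrc1, C1qa, C1qb and C1qc fell with both inhibitors in both subsets, whereas those of Apoe rose. Apoe had means of 15.14, 48.15 and 22.04 FPKM in PMN-MDSCs with vehicle, MS-275 and CXD101. The means of Adgre1 rose in M-MDSCs (40.2, 56.1 and 45.0) and fell in PMN-MDSCs (87.5, 83.3 and 67.7). The part of these shifts in the results was not tested.

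Under vehicle, the adaptor Ndfip1 was the most abundant member in both subsets and Hecw2 the least. In M-MDSCs the mean FPKM of the 2 libraries was 53.3 for Ndfip1, 30.3 for Wwp2, 17.97 for Itch, 13.5 for Ndfip2, 10.5 for Nedd4, 7.65 for Smurf1, 7.08 for Wwp1, 5.45 for Smurf2, 3.61 for Nedd4l and 0.0443 for Hecw2. In PMN-MDSCs it was 81.7 for Ndfip1, 40.1 for Wwp2, 28.9 for Itch, 16.9 for Ndfip2, 11.1 for Wwp1, 9.87 for Smurf1, 8.59 for Smurf2, 5.52 for Nedd4, 3.58 for Nedd4l and 0.104 for Hecw2. The 2 libraries of each gene stood apart from those of its neighbor in both orders. Among the ligases, Nedd4 thus ranked 3 in M-MDSCs and 6 in PMN-MDSCs of vehicle mice.

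**Figure D1:**
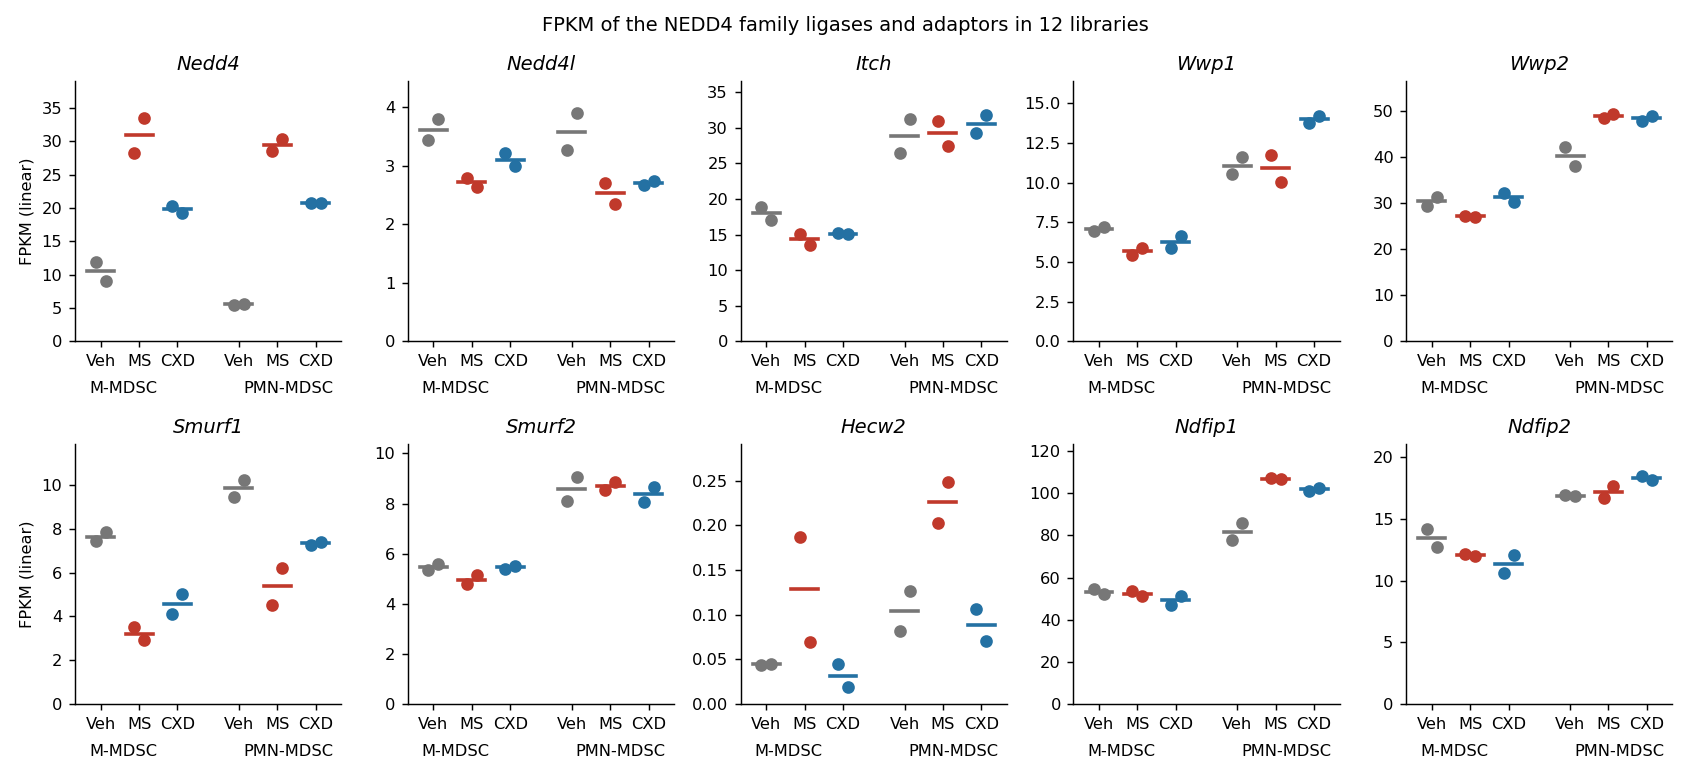
FPKM (linear axes from 0, each panel with its own scale) of the 10 members in 12 libraries. Points are single libraries and bars the means of 2, with vehicle (Veh) in grey, MS-275 (MS) in red and CXD101 (CXD) in blue. The vehicle libraries are the lowest for Nedd4 and the highest for Smurf1 in each subset, and Itch, Wwp1, Wwp2, Smurf2, Ndfip1 and Ndfip2 lie higher in every PMN-MDSC library than in any M-MDSC library.

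Nedd4, the founding member of the family, ubiquitinates membrane receptors and signaling proteins. The gene spans 72662346 to 72749852 of chromosome 9 (GRCm38, plus strand), has 10 annotated transcripts and overlaps 4 genes of the same strand (A530064N14Rik, Gm36936, Gm37955 and Gm7265), whose reads the counting could have split with it. In M-MDSCs, Nedd4 was at 11.9 and 9.03 FPKM with vehicle, 28.3 and 33.5 with MS-275, and 20.4 and 19.3 with CXD101. In PMN-MDSCs, Nedd4 was at 5.50 and 5.53 FPKM with vehicle, 28.5 and 30.4 with MS-275, and 20.8 and 20.7 with CXD101. The groups did not overlap within either subset, and the MS-275 libraries were the highest in both.

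Nedd4 rose with both inhibitors in both subsets. In M-MDSCs the mean was 2.95-fold that of vehicle with MS-275 (log2 fold change 1.48, SE 0.13, adjusted p = 6.34e-05) and 1.89-fold with CXD101 (0.87, SE 0.13, adjusted p = 0.00246). In PMN-MDSCs the mean was 5.33-fold that of vehicle with MS-275 (log2 fold change 2.22, SE 0.08, adjusted p = 2.58e-06) and 3.77-fold with CXD101 (1.74, SE 0.08, adjusted p = 9.41e-06). Nedd4 kept its call in each of these 4 comparisons when any single library was left out. Among the 9 members tested, it was the single one called higher in each. The summed monocytic and neutrophil markers were also higher in the treated libraries of both subsets, although single markers of these lists, such as Csf1r and Mmp9, were lower, as given above.

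Smurf1 (SMAD ubiquitination regulatory factor 1) acts on SMAD proteins, TGF-β family receptors and RhoA. The gene spans 144876495 to 144965847 of chromosome 5 (minus strand). In M-MDSCs, Smurf1 was at 7.46 and 7.84 FPKM with vehicle, 3.50 and 2.93 with MS-275, and 4.13 and 5.04 with CXD101. In PMN-MDSCs, Smurf1 was at 9.47 and 10.3 FPKM with vehicle, 4.54 and 6.24 with MS-275, and 7.28 and 7.40 with CXD101. Every treated library was below both vehicle libraries of its subset. Smurf1 fell with MS-275 in M-MDSCs (0.420-fold, log2 fold change -1.04, SE 0.12, adjusted p = 0.000308) and in PMN-MDSCs (0.546-fold, log2 fold change -0.78, SE 0.14, adjusted p = 0.00262), and with CXD101 in M-MDSCs (0.599-fold, log2 fold change -0.64, SE 0.12, adjusted p = 0.00837). With CXD101 in PMN-MDSCs the value was 0.744-fold and was not called (log2 fold change -0.38, SE 0.14, adjusted p = 0.0610). Without CXD101 replicate 1 of M-MDSCs that call was lost (-0.52, adjusted p = 0.0528), and without MS-275 replicate 1 of PMN-MDSCs the value stood just under the fold limit (-0.58, adjusted p = 0.0120).

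In M-MDSCs, 1 member was called higher and 1 lower with MS-275, where 10.1% of 11078 genes tested were called higher and 7.32% lower. With CXD101, 1 was called higher and 1 lower as well, where 5.14% of genes were called higher and 3.0% lower. In PMN-MDSCs, 1 member was called higher and 1 lower with MS-275, where 14.6% of 11184 genes tested were called higher and 14.2% lower. With CXD101, 1 was called higher and 0 lower, where 11.9% of genes were called higher and 9.54% lower. The median log2 fold change of the 9 members tested was -0.16 with MS-275 and -0.16 with CXD101 in M-MDSCs, and 0.018 and 0.11 in PMN-MDSCs, beside -0.059, -0.022, -0.027 and -0.026 over all genes tested.

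**Figure D2:**
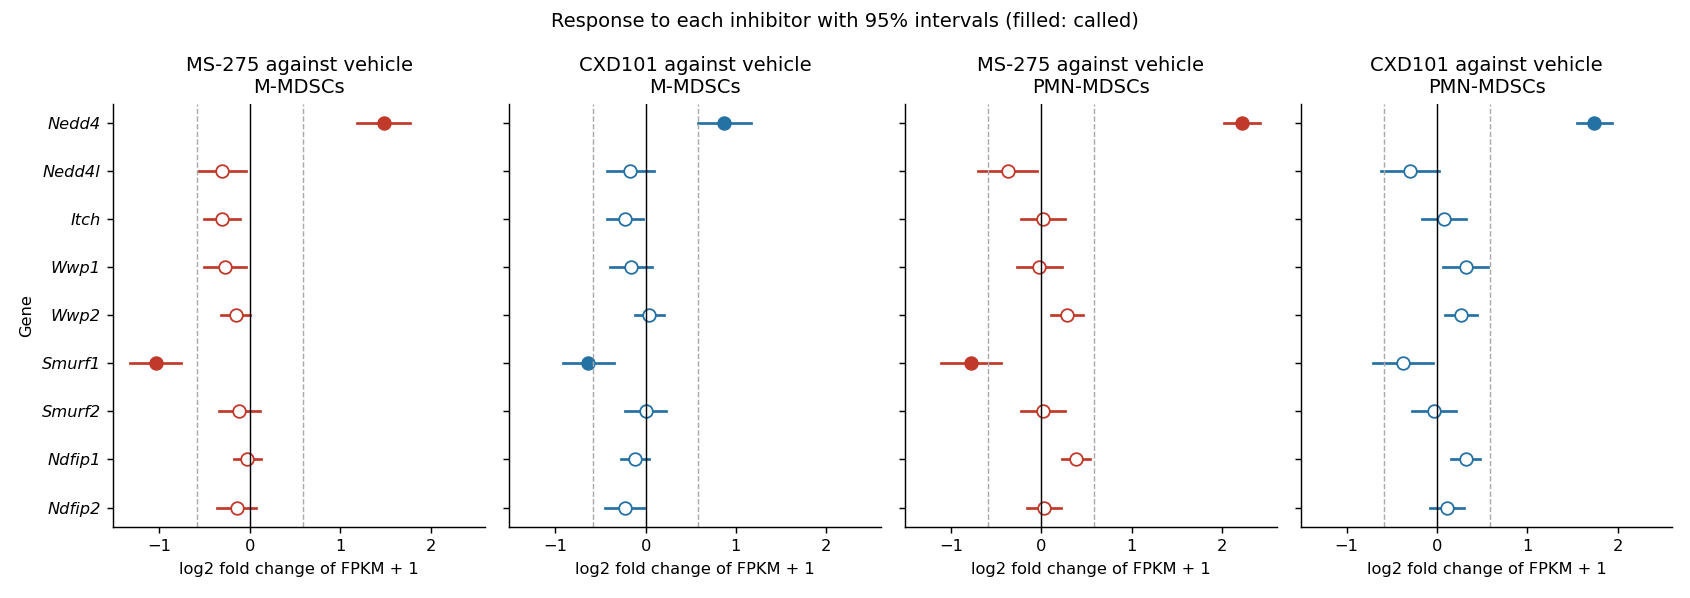
Log2 fold change of FPKM + 1 against vehicle for the 9 members tested, 1 panel per inhibitor and subset. Points are limma estimates, lines 95% intervals, filled points calls, and dashed lines a fold change of 1.5. Nedd4 is filled on the right in all 4 panels, at 1.48, 0.87, 2.22 and 1.74, and Smurf1 is filled on the left in 3.

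Itch encodes a ligase known for the degradation of JunB and for restraint of T cell and myeloid inflammation, and lies on chromosome 2 from 155133509 to 155226855. Itch was at 18.9 and 17.1 FPKM in M-MDSCs of vehicle mice, 15.1 and 13.6 with MS-275, and 15.2 and 15.1 with CXD101. The treated libraries were lower than both vehicle libraries, but with MS-275 the fold change was within the limit (log2 fold change -0.31, SE 0.09, adjusted p = 0.0198) and with CXD101 neither limit was passed (-0.23, adjusted p = 0.0898). In PMN-MDSCs, Itch was at 26.5 to 31.8 in the 6 libraries, with overlap between all treatments.

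Wwp1 and Wwp2 encode WW domain ligases of the family, and KLF5 is a known substrate of WWP1. Wwp1 (chromosome 4, 19608303 to 19708993) ranged from 5.47 to 7.20 FPKM in M-MDSCs. In PMN-MDSCs, Wwp1 was at 10.5 and 11.6 with vehicle, 11.7 and 10.1 with MS-275, and 13.8 and 14.2 with CXD101. The CXD101 libraries were thus the highest of the 12, with a fold change within the limit (log2 fold change 0.31, SE 0.11, adjusted p = 0.0441). Wwp2 (chromosome 8, 107436365 to 107558595) contains the microRNA gene Mir140 and was at 27.0 to 32.2 FPKM in M-MDSCs. In PMN-MDSCs, Wwp2 was at 42.2 and 37.9 with vehicle, 48.5 and 49.2 with MS-275, and 47.8 and 48.8 with CXD101. Both treated groups were above both vehicle libraries, by a log2 fold change of 0.28 with MS-275 (SE 0.08, adjusted p = 0.0148) and 0.27 with CXD101 (SE 0.08, adjusted p = 0.0227), within the fold limit.

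Nedd4l, the closest relative of Nedd4 and known for its control of the epithelial sodium channel, lies on chromosome 18 from 64887705 to 65217828. In M-MDSCs, Nedd4l was at 3.43 and 3.79 FPKM with vehicle, 2.79 and 2.64 with MS-275, and 3.22 and 2.99 with CXD101. In PMN-MDSCs, it was at 3.26 and 3.89 with vehicle, 2.71 and 2.35 with MS-275, and 2.67 and 2.74 with CXD101. Every treated library was below both vehicle libraries, but no comparison passed the adjusted p limit (log2 fold change -0.31 and -0.17 in M-MDSCs and -0.37 and -0.30 in PMN-MDSCs, adjusted p = 0.0550, 0.328, 0.0531 and 0.112). Smurf2, a relative of Smurf1 with related substrates, lies on chromosome 11 from 106820066 to 106920715. It was at 4.77 to 5.58 FPKM in M-MDSCs and 8.08 to 9.06 in PMN-MDSCs, and its log2 fold changes against vehicle were between -0.12 and 0.018. The pair of Smurf genes thus differed in their values, although the difference between them was not tested.

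Hecw2, a family member known from neural tissue, lies on chromosome 1 from 53806876 to 54195168. Its FPKM was 0.0187 to 0.248 in the 12 libraries, below the limit for testing in each. Its 2 MS-275 libraries held the highest values in each subset (0.1871 and 0.06945 in M-MDSCs, 0.203 and 0.248 in PMN-MDSCs), at levels for which the depth gives no comparison. Hecw1, the remaining ligase of the family and no member here, was listed at 0 in all 12 libraries.

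Ndfip1 lies on chromosome 18 from 38410396 to 38465303 and Ndfip2 on chromosome 14 from 105258573 to 105309298. In M-MDSCs, Ndfip1 was at 54.4 and 52.1 FPKM with vehicle, 53.5 and 51.1 with MS-275, and 47.2 and 51.1 with CXD101. In PMN-MDSCs, Ndfip1 was at 77.7 and 85.7 with vehicle, 107 in both libraries with MS-275, and 101 and 102 with CXD101. The vehicle and treated libraries did not overlap in PMN-MDSCs, where the log2 fold change was 0.39 with MS-275 (SE 0.07, adjusted p = 0.00211) and 0.32 with CXD101 (SE 0.07, adjusted p = 0.00701), both within the fold limit. Ndfip2 was at 10.6 to 14.2 FPKM in M-MDSCs and 16.7 to 18.4 in PMN-MDSCs. Its log2 fold changes against vehicle were between -0.23 and 0.11 and none passed the adjusted p limit.

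As Nedd4 rose, its share of the family grew. Nedd4 held 12.7% ± 2.32 (SD, n = 2) of the summed FPKM of the 8 ligases in M-MDSCs of vehicle mice, 34.7% ± 3.11 with MS-275 and 23.1% ± 0.581 with CXD101. In PMN-MDSCs, it held 5.12% ± 0.120 with vehicle, 21.8% ± 1.09 with MS-275 and 15.7% ± 0.430 with CXD101. Among the ligases, it ranked 1 in both M-MDSC libraries with MS-275 and 2 in both with CXD101, and ranked 2 with MS-275 and 3 with CXD101 in PMN-MDSCs. In PMN-MDSCs with MS-275, Nedd4 (28.5 and 30.4) and Itch (31.0 and 27.5) overlapped, so that their order is not set. The summed FPKM of the ligases was 82.6 ± 1.08 in M-MDSCs of vehicle mice, 89.0 ± 2.52 with MS-275 and 85.6 ± 1.10 with CXD101. In PMN-MDSCs, the sum was 108 ± 2.83 with vehicle, 135 ± 0.595 with MS-275 and 132 ± 3.23 with CXD101.

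**Figure D3:**
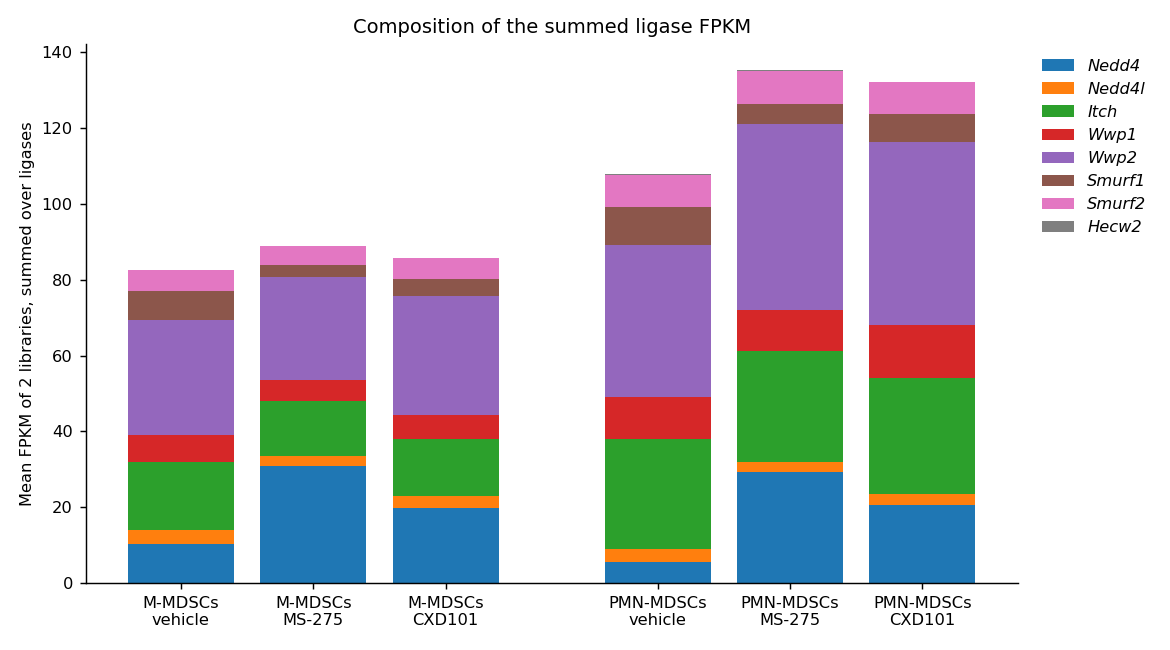
Mean FPKM of 2 libraries for each of the 8 ligases, stacked, in the 6 groups. The Nedd4 segment at the base makes up 12.7%, 34.7% and 23.1% of the M-MDSC bars and 5.12%, 21.8% and 15.7% of the PMN-MDSC bars; Hecw2 is too low to be seen.

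The inhibitors were compared with each other at the same dose. In M-MDSCs, Nedd4 was 1.56-fold higher with MS-275 than with CXD101 (log2 difference 0.61, 95% interval 0.32 to 0.91, adjusted p = 0.0197) and was the 1 member called, where 3.22% of genes were called higher and 1.17% lower. This call was lost without MS-275 replicate 2 (0.49, adjusted p = 0.0998), without CXD101 replicate 1 (0.65, adjusted p = 0.0745) and without CXD101 replicate 2 (0.57, adjusted p = 0.0882). Smurf1 was lower with MS-275 in every library, by a log2 difference of -0.40 (95% interval -0.69 to -0.12, adjusted p = 0.0657). In PMN-MDSCs, for which the dose is not separately stated, limma called 0 members, with 3 at an unadjusted p under 0.05, where 0.465% of genes were called higher and 0.340% lower. There the log2 difference of Nedd4 was 0.48 (95% interval 0.29 to 0.68, adjusted p = 0.0499), within the fold limit. That of Smurf1 was -0.40 (95% interval -0.73 to -0.068, adjusted p = 0.247), and that of Wwp1 was -0.34 (95% interval -0.59 to -0.09, adjusted p = 0.202).

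The subsets were compared under vehicle in a model of all 12 libraries. Itch and Ndfip1 were higher in PMN-MDSCs, by 1.61-fold (log2 difference 0.65, SE 0.10, adjusted p = 0.000190) and 1.53-fold (0.61, SE 0.06, adjusted p = 1.35e-05). Nedd4 was lower in PMN-MDSCs, at 0.526-fold of M-MDSCs (log2 difference -0.81, SE 0.12, adjusted p = 0.000132). Thus 2 members were called higher and 1 lower, where 17.2% of 11662 genes tested were called higher and 16.8% lower. Without vehicle replicate 2 of either subset, Itch (0.58 and 0.54) and Ndfip1 (0.58 and 0.54) stood under the fold limit with adjusted p of at most 0.00278. Wwp1 (0.58), Smurf2 (0.57), Wwp2 (0.39) and Ndfip2 (0.31) were higher at adjusted p of 0.000457, 0.000256, 0.000532 and 0.00743 but within the limit. For Smurf1 the log2 difference was 0.33 (adjusted p = 0.0574) and for Nedd4l -0.013 (adjusted p = 0.929).

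The response of Nedd4 was larger in PMN-MDSCs than in M-MDSCs with both inhibitors. The difference between the responses was 0.74 on the log2 scale with MS-275 (SE 0.16, adjusted p = 0.00688) and 0.87 with CXD101 (SE 0.16, adjusted p = 0.00397). The treated libraries of both subsets lay at 28.3 to 33.5 FPKM with MS-275 and 19.3 to 20.8 with CXD101, whereas the vehicle libraries lay at 9.03 to 11.9 in M-MDSCs and 5.50 to 5.53 in PMN-MDSCs. Without vehicle replicate 1 of M-MDSCs, the difference with MS-275 was 0.56 (adjusted p = 0.0195), under the fold limit. For each inhibitor Nedd4 was the 1 member called higher and 0 were called lower, where 8.65% of genes were called higher and 9.48% lower for MS-275, and 7.31% and 6.59% for CXD101. The differences of Ndfip1 (0.41 and 0.43, adjusted p = 0.00681 and 0.00708), of Wwp2 with MS-275 (0.44, adjusted p = 0.00657) and of Wwp1 with CXD101 (0.47, adjusted p = 0.0332) passed the adjusted p limit but not the fold limit. For Smurf1 the differences were 0.26 with each inhibitor (95% interval -0.17 to 0.69 with MS-275 and -0.17 to 0.68 with CXD101, adjusted p = 0.337 and 0.371).

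**Figure D4:**
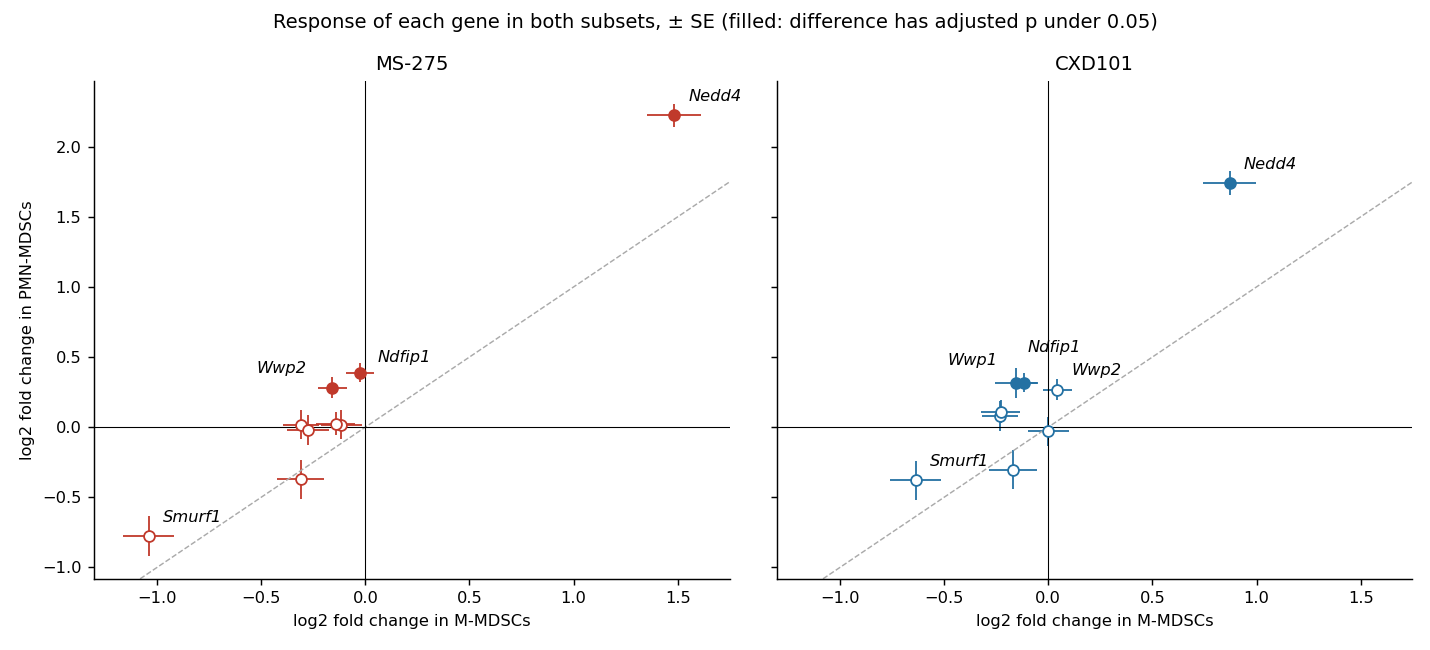
Log2 fold change against vehicle in M-MDSCs (x axis) and PMN-MDSCs (y axis) of the 9 members tested, with bars of 1 SE, for MS-275 and CXD101. Filled points have a difference between subsets at an adjusted p under 0.05, and the dashed line marks equal responses. Nedd4 lies above the line at 1.48 and 2.22 with MS-275 and at 0.87 and 1.74 with CXD101.

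Over the 12 libraries, the log2(FPKM + 1) values of Nedd4 correlated with those of Nedd4l at r = -0.855 and of Smurf1 at r = -0.816, and with those of the other 6 members tested at r between -0.242 and 0.0423. The libraries share their group means, so these values describe the 6 groups more than 12 independent points. Among 11662 genes, those most like Nedd4 by this measure were Nkg7 (r = 0.985), Dstn (r = 0.984), Map7 (r = 0.982), Tmem119 (r = 0.981) and Suox (r = 0.975). Nkg7, a granule gene of cytotoxic lymphocytes, was at 6.01 to 9.19 FPKM in M-MDSCs of vehicle mice, 66.3 to 72.7 with MS-275 and 27.9 to 37.9 with CXD101, and at 1.10 to 1.70, 40.2 to 41.7 and 26.5 to 33.6 in PMN-MDSCs. Dstn, which encodes the actin-severing protein destrin, had group means of 224, 396 and 324 in M-MDSCs and 156, 408 and 369 in PMN-MDSCs. Like Nedd4, all 5 were lowest in PMN-MDSCs of vehicle mice, which their choice by correlation with Nedd4 over the same libraries favors.

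The remaining genes of the ubiquitin pathway were described in 4 lists. Of 19 further HECT ligases, 18 were found and 16 tested. In M-MDSCs limma called 0 of them with either inhibitor (5 at an unadjusted p under 0.05 with MS-275 and 3 with CXD101), and their median log2 fold change was -0.077 with MS-275 and -0.049 with CXD101. Of all genes there, 10.1% were called higher and 7.32% lower with MS-275, and 5.14% and 3.0% with CXD101. In PMN-MDSCs, 0 were called with MS-275 (7 at an unadjusted p under 0.05), beside 14.6% of all genes higher and 14.2% lower. With CXD101, 1 was called higher, beside 11.9% of all genes higher and 9.54% lower. It was Herc3, at 5.14 and 5.05 FPKM with vehicle and 9.90 and 10.1 with CXD101 (log2 fold change 0.85, adjusted p = 0.000552). With MS-275, Herc3 was at 8.49 and 7.64, just within the fold limit (log2 fold change 0.57, adjusted p = 0.00263). Its difference between the inhibitors was not called (adjusted p = 0.263). Of 10 ubiquitin-activating and -conjugating enzymes, Ube2l6, an enzyme for ubiquitin and the ubiquitin-like protein ISG15, was the 1 called: it rose with MS-275 in M-MDSCs (1.21, adjusted p = 0.000277) and with MS-275 and CXD101 in PMN-MDSCs (1.04 and 1.06, adjusted p = 0.000484 and 0.000647). Of all genes, 10.1%, 14.6% and 11.9% were called higher in these comparisons.

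Among 18 recruiters and regulators of the family, 17 were tested in M-MDSCs and 16 in PMN-MDSCs. With MS-275 in M-MDSCs 2 were called higher and 1 lower, near the 10.1% and 7.32% of all genes, and with CXD101 2 higher and 1 lower, beside 5.14% and 3.0%. In PMN-MDSCs 1 was called higher and 2 lower with MS-275, beside 14.6% and 14.2% of all genes, and 0 higher and 1 lower with CXD101, beside 11.9% and 9.54%. The median log2 fold change of the list was -0.16 and -0.061 in M-MDSCs and 0.028 and 0.026 in PMN-MDSCs with MS-275 and CXD101. Such counts are too small to be read as a departure of the list from all genes. Arrdc4, an arrestin-like adaptor with PY motifs, fell in all 4 comparisons. It was at 16.5 and 18.9 FPKM in M-MDSCs of vehicle mice, 7.17 and 7.15 with MS-275, and 9.03 and 11.6 with CXD101, and at 47.4 and 45.0, 30.9 and 28.6, and 26.4 and 26.7 in PMN-MDSCs. The log2 fold changes of Arrdc4 were -1.19 and -0.73 in M-MDSCs (adjusted p = 0.000144 and 0.00434) and -0.62 and -0.78 in PMN-MDSCs (adjusted p = 0.000370 and 0.000210). Grb10, an adaptor that couples NEDD4 to the insulin-like growth factor receptor, was at 0.0417 and 0 FPKM in M-MDSCs of vehicle mice and at 1.38 and 1.14 with MS-275 (log2 fold change 1.14, adjusted p = 0.00109). Smad7, which recruits SMURF proteins to TGF-β receptors, rose in M-MDSCs with MS-275 (0.75, adjusted p = 0.00491) and CXD101 (0.63, adjusted p = 0.0220). In PMN-MDSCs, Smad7 was not called but moved the same way. It was at 3.661 and 4.745 FPKM with vehicle, 6.756 and 6.230 with MS-275, and 5.724 and 5.599 with CXD101. In PMN-MDSCs with MS-275, Txnip, an arrestin-like protein, rose (0.69, adjusted p = 0.000175) and Sgk1, a kinase that phosphorylates NEDD4L, fell (-0.63, adjusted p = 0.000222). With CXD101 neither was called, but both moved the same way. The means with vehicle and CXD101 were 282.5 and 394.6 FPKM for Txnip and 55.81 and 40.63 for Sgk1.

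Among 21 substrates and partners, 20 were tested. In M-MDSCs 2 were called higher and 2 lower with MS-275, about the 10.1% and 7.32% of all genes, and 2 higher and 0 lower with CXD101, beside 5.14% and 3.0%. In PMN-MDSCs 4 were called higher and 2 lower with MS-275, beside 14.6% and 14.2%, and 5 higher and 1 lower with CXD101, beside 11.9% and 9.54%. The median log2 fold change of the list was -0.0011 and -0.11 in M-MDSCs and -0.034 and -0.046 in PMN-MDSCs with MS-275 and CXD101, and here too the counts are too small to set the list apart from all genes. Cxcr4, a chemokine receptor gene, rose in all 4 comparisons (1.08 and 0.80 in M-MDSCs, 1.19 and 0.96 in PMN-MDSCs, adjusted p of at most 0.000139). Igf1r, the insulin-like growth factor receptor, rose in M-MDSCs (1.25 and 0.78, adjusted p = 4.13e-05 and 0.00127) and with CXD101 in PMN-MDSCs (0.67, adjusted p = 0.000705). With MS-275 in PMN-MDSCs, Igf1r was not called but was higher in both libraries. It was at 9.618 and 10.24 FPKM there with vehicle, 15.60 and 15.15 with MS-275, and 16.29 and 16.46 with CXD101. Junb fell in M-MDSCs with MS-275 (-0.70, adjusted p = 0.000546). In PMN-MDSCs, the transcription factor gene Klf5 rose (1.72 and 1.37, adjusted p = 1.42e-05 and 6.34e-05), and so did Rnf11, which encodes a PY-motif partner of the ligases (1.10 and 0.84, adjusted p = 1.86e-05 and 0.000105). Ccr2, the chemokine receptor gene at the center of the study, was called in none of the 4 comparisons. It was at 147 and 137 FPKM in M-MDSCs of vehicle mice, 125 and 124 with MS-275 and 137 and 125 with CXD101, with log2 fold changes of -0.19 (adjusted p = 0.0456) and -0.12 (adjusted p = 0.228). In PMN-MDSCs the log2 fold changes of Ccr2 were -0.35 (adjusted p = 0.00934) and -0.44 (adjusted p = 0.00402). There Ccr2 was at 40.7 and 35.7 FPKM with vehicle, 30.0 and 29.4 with MS-275, and 27.5 and 28.0 with CXD101. Except with CXD101 in M-MDSCs, these falls of Ccr2 passed the adjusted p limit, but all 4 lay within the fold limit.

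**Figure D5:**
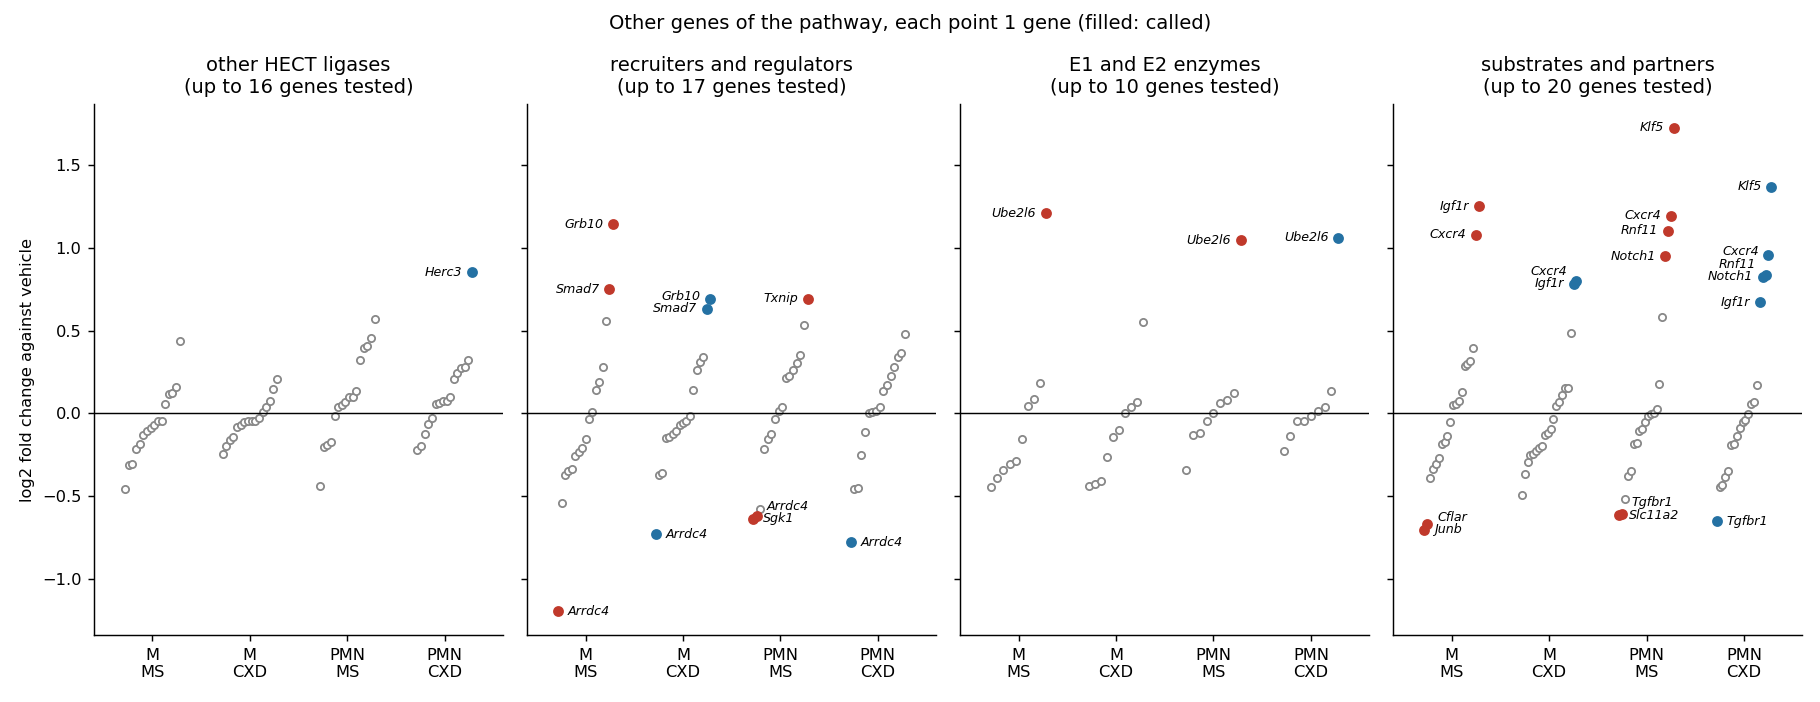
Log2 fold change against vehicle of each tested gene in the 4 lists (1 point per gene), for MS-275 (MS, red where called) and CXD101 (CXD, blue where called) in M-MDSCs (M) and PMN-MDSCs (PMN). Open points were not called, and called genes are named, among them Arrdc4 below 0 and Cxcr4 above 0 in all 4 comparisons.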

How the data were processed

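RNA-seq of 12 sorted MDSC libraries was analyzed (TruSeq stranded mRNA, single-end NovaSeq reads). The submitters' processing notes name TopHat2 2.1.1, Bowtie2 2.2.8, SAMtools 0.1.18, Cuffdiff 2.2.1 and mm10. The strand setting and the annotation are not given in the sources used here, and no values were scaled further. The authors deposited 1 FPKM table per library, scaled by transcript length and library size. Values were tested as log2(FPKM + 1) by limma 3.58.1 under R 4.3.3 (eBayes with an intensity trend, Benjamini-Hochberg over all genes tested), with 1 model per subset of 6 libraries and 1 of all 12 for comparisons of subsets. The fold limit of 1.5 and the adjusted p limit of 0.05 follow the study. The code was tested on simulated data. Locations are from GENCODE M21 (GRCm38). Members, lists and tests were chosen with earlier results of these data known. Named genes were all members, Ccr2, up to 3 called genes per list, inhibitor and subset (mean FPKM of 1 or more in the higher group), and the 5 genes most like Nedd4; 1 gene of the list of substrates and partners is not reported here. Depth was estimated, so no counting interval was given. Alternatives covered pseudocount, filter, scaling, trend, fold limit, block, library set and each library left out.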

Additional observations from a re-analysis of the deposited data

Results flagged for a closer look

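In all, 6 values of members differed between the subsets at an adjusted p under 0.05 by the interaction test in limma, with M-MDSCs and PMN-MDSCs each at 2 libraries per group. The share of all genes at this limit alone is not given here, so the count is not read as a result. With the fold limit of 1.5 added, only Nedd4 was called for each inhibitor. There 8.65% of genes were called higher and 9.48% lower for MS-275, and 7.31% and 6.59% for CXD101. With MS-275, the response in PMN-MDSCs exceeded that in M-MDSCs by 0.7411 on the log2 scale for Nedd4, 0.4404 for Wwp2 and 0.4131 for Ndfip1. With CXD101, it did so by 0.8701 for Nedd4, 0.4712 for Wwp1 and 0.4312 for Ndfip1. Nedd4 moved in the same direction in both subsets. For Wwp2, the log2 fold change with MS-275 was -0.16 in M-MDSCs (adjusted p = 0.0944) and 0.28 in PMN-MDSCs (adjusted p = 0.0148). For Wwp1 with CXD101 it was -0.16 (adjusted p = 0.301) and 0.31 (adjusted p = 0.0441). For Ndfip1 it was -0.026 and -0.12 in M-MDSCs (adjusted p = 0.772 and 0.249) and 0.39 and 0.32 in PMN-MDSCs with MS-275 and CXD101 (adjusted p = 0.00211 and 0.00701). S100a8 and S100a9 took 10.2% to 13.7% of FPKM in PMN-MDSCs of vehicle mice and 27.3% to 30.9% in those of treated mice, and the part of that shift in these differences was not tested.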

How the results depend on the processing

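The 81 values of members (9 genes in 9 comparisons) were recomputed 1395 times in all, of which 1339 kept direction and side of the limits, 21 lost a call, 6 gained one and 29 changed sign. No value that changed sign was called in either setting. With a fold limit of 2, the number of members called was 0 for CXD101 in M-MDSCs, for MS-275 against CXD101 in M-MDSCs, for the subsets under vehicle and for both differences in response, and 1 for MS-275 in PMN-MDSCs. Without a filter it was 0 for MS-275 against CXD101 in M-MDSCs (Nedd4, adjusted p = 0.0634), and with a pseudocount of 0.1 it was 5 for the subsets under vehicle, Wwp1 (0.64) and Smurf2 (0.64) being added. With quantile normalization Ndfip1 fell under the fold limit there (0.57). Leaving out 1 library gave 1 to 2 members called for CXD101 in M-MDSCs, 0 to 1 for MS-275 against CXD101 in M-MDSCs, 1 to 2 for MS-275 in PMN-MDSCs, 1 to 5 for the subsets under vehicle and 0 to 1 for the difference in response to MS-275. The cause was not tested.

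With the replicate number as a block, no member call changed, and Nedd4 with MS-275 in M-MDSCs had an adjusted p of 0.000200 by limma. Its log2 fold change of 1.4812 could not move, because each group holds both replicate numbers. Deviations of same-numbered libraries correlated at -0.126 to 0.179. With 2 libraries per group, these values cannot settle whether same-numbered libraries share mice or a batch.

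Values near 0 changed sign. With quantile normalization, Wwp1 with MS-275 in PMN-MDSCs was 0.0325, the difference of Smurf2 in response to CXD101 0.0049 and Ndfip1 with MS-275 in M-MDSCs 0.1055. With median-of-ratios scaling, Smurf2 with CXD101 in M-MDSCs was 0.0076 and Ndfip1 with MS-275 in M-MDSCs 0.0125. With 1 library left out, values ranged from -0.1436 to 0.0030 for Nedd4l with MS-275 against CXD101 in PMN-MDSCs, -0.1123 to 0.0859 for Nedd4l between subsets and -0.1607 to 0.0375 for its difference with MS-275. In PMN-MDSCs, Itch ranged from -0.0986 to 0.1335 with MS-275, -0.0371 to 0.1950 with CXD101 and -0.1460 to 0.0230 between inhibitors, Wwp1 from -0.1245 to 0.0784 with MS-275, Smurf2 from -0.0535 to 0.0890 with MS-275 and -0.1021 to 0.0404 with CXD101, and Ndfip2 from -0.0140 to 0.0632 with MS-275. In M-MDSCs, Wwp2 ranged from -0.0026 to 0.0882 and Smurf2 from -0.0282 to 0.0274 with CXD101, and Ndfip1 from -0.0582 to 0.0058 with MS-275. The difference of Smurf2 in response to CXD101 ranged from -0.1017 to 0.0408.

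Over all genes, a fold limit of 2 left 720 of 1934, 261 of 901 and 134 of 487 calls in M-MDSCs (MS-275, CXD101, MS-275 against CXD101), 1278 of 3214, 854 of 2394 and 40 of 90 in PMN-MDSCs, 1543 of 3968 between subsets, and 694 of 2115 and 474 of 1620 for the differences. An FPKM of at least 5 left 1269, 591 and 268 in M-MDSCs. The 90 calls between inhibitors in PMN-MDSCs became 4 without a filter, 35 without the trend, 151 in one model of 12 libraries and 10 to 111 with 1 library left out. The M-MDSC count of 487 became 308 to 474. A group left with 1 library was assumed to vary like the others. The estimated depth limits statements on Hecw2.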

Other observations

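Between the subsets under vehicle, many recruiters and substrates of the family differed. Of 17 recruiters and regulators tested, 11 were higher and 1 lower in PMN-MDSCs, and of 20 substrates and partners 10 were higher and 1 lower, where 17.2% of 11662 genes tested were called higher and 16.8% lower. Sgk1 was at 13.1 and 14.4 FPKM in M-MDSCs and 57.5 and 54.2 in PMN-MDSCs (log2 difference 1.95, adjusted p = 6.63e-08 by limma). Txnip was at 80.6 and 78.0 FPKM in M-MDSCs and 269 and 296 in PMN-MDSCs (log2 difference 1.82, adjusted p = 5.75e-09). Arrdc4 was 2.61-fold higher in PMN-MDSCs (log2 difference 1.34, adjusted p = 1.53e-06), so the gene that fell with both inhibitors in both subsets started from a higher level there, whereas Nedd4 started from a lower one. The 1 substrate called lower in PMN-MDSCs was Ccr2 (0.269-fold, log2 difference -1.87, adjusted p = 1.16e-08). The lists differ in size and content from the members, and no test compared them.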
